A study of Mus musculus with 7 samples.

Results

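The WNT genes of the bleomycin-injured mouse lung were compared between mice left without oxygen treatment and mice exposed to hyperbaric oxygen (HBO). The set held every protein-coding gene whose GENCODE symbol names a WNT ligand, a Frizzled receptor (Fzd), a secreted Frizzled-related protein (Sfrp) or a Dickkopf protein (Dkk). Frzb (also called Sfrp3), Wif1, Lrp5, Lrp6, Axin2 and Lef1 were added by name. These rules found 43 of the 55401 genes in the count table, or 43 of its 21897 protein-coding genes. They comprised 19 ligands, 10 receptors, 2 co-receptors, 6 inhibitors that bind WNT proteins, 4 Dickkopf proteins and 2 genes that serve as read-outs of the pathway. The rule reads symbols and no measured value.

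WNT proteins are secreted, lipid-carrying signals that reach their neighbours over short distances. In the canonical branch a ligand joins a Frizzled receptor to the co-receptor LRP5 or LRP6, which stops the breakdown of beta-catenin and lets it act in the nucleus with TCF/LEF factors. Other ligands, Wnt5a and Wnt11 among them, act mostly through beta-catenin-independent branches. SFRP proteins and WIF1 hold WNT ligands outside the cell, whereas DKK1, DKK2 and DKK4 bind the co-receptors. In the lung the pathway sustains alveolar type II (AT2) progenitor cells, and it is known to be active in epithelium and fibroblasts of fibrotic tissue.

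All 7 animals were male C57BL/6 mice, 6 to 8 weeks old, and all had received bleomycin, a cytotoxic antibiotic that scars the lung, into the trachea. The 4 BLM mice had no HBO. The 3 BLM+HBO mice breathed pure oxygen at 2.5 ATA for 90 min per day in 14 daily exposures that began on day 7, and lungs from both groups were taken on day 21. The sample records place the BLM mice in the chamber without pressurization and the study's methods call them untreated, and which of the descriptions applies is not settled here. Mice with little weight loss after bleomycin had been left out of the model by the authors, and no lung without bleomycin was among the libraries, so every difference lies between injured lungs. Each library came from the right lobes of 1 mouse.

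The libraries held 18157161 to 26365969 counts, and the markers of alveolar type I (AT1) and AT2 cells, which define lung tissue, summed to at least 4269 and 9019 CPM (counts scaled to the library) in every mouse. BLM+HBO 2 stood apart from its group: on the first principal component of all tested genes it lay at -0.996, next to the BLM mice (-47.6 to -6.08), and BLM+HBO 1 and BLM+HBO 3 lay at 54.8 and 37.8. Results that rest on it are therefore given with and without it. It was picked out from these same data, so leaving it out favours larger differences between the groups. Levels are in FPKM, counts scaled to the library (with TMM factors) and to the kilobases of exon, and values are listed in the order of the mouse numbers. A difference was called where edgeR's quasi-likelihood test gave an unadjusted P below 0.05 and the fold change exceeded 1.5. In whole lung tissue, fewer cells of a type and less RNA per cell cannot be told apart.

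Of the 43 genes, 33 had enough counts to be tested. 3 of them were called lower in BLM+HBO (Wnt5b, Wnt7a and Sfrp1), against 2.89% of all 17465 tested genes. 1 was called higher (Wnt10b), against 3.4% of all tested genes. In either direction 6.29% of all tested genes were called. At P below 0.05 without a fold limit there were 6, with Wnt5a and Wnt9a as further lower genes, against 10.7% of all genes. In 4 of the 33 the levels of both groups did not overlap (Wnt5b, Wnt7a and Wnt9a lower, Fzd3 higher), against 8.77% of all genes. None passed an adjusted P of 0.05 by edgeR, where the lowest adjusted P was 0.423 for members and for all genes alike, and none did by DESeq2 or limma. Of all genes, 0.459% passed it by DESeq2 and none by limma. The median log2 fold change was -0.12 over the 33 genes and 0.01 over all tested genes.

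**Figure D1:**
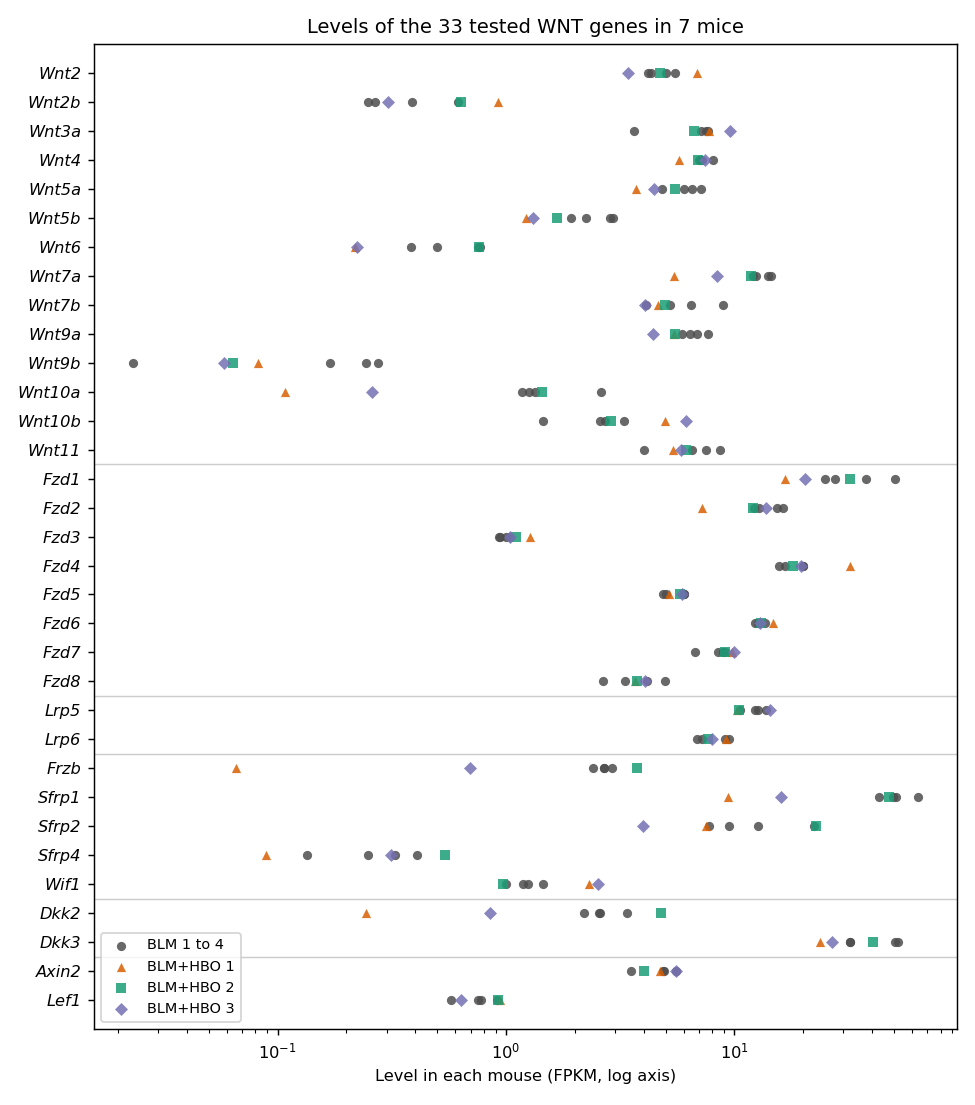
Level of each of the 33 tested WNT genes in each mouse (FPKM, logarithmic axis), with grey lines between the roles. BLM+HBO 1 (triangles) and BLM+HBO 3 (diamonds) sit far left of the BLM mice (grey circles) for Frzb, Sfrp1, Dkk2 and Wnt10a, where BLM+HBO 2 (squares) sits among or above them.

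10 of the 14 tested ligands had a lower fitted level in BLM+HBO, against 8523 of all 17465 tested genes. The median log2 fold change of the tested ligands was -0.41. 2 ligands were called lower and 1 higher, against 2.89% and 3.4% of all tested genes. Roles were not tested against each other. The FPKM of all 19 ligands summed to 66.9, 64.1, 70.3 and 60.2 in the BLM mice, and those of the treated mice to 52.8, 59.9 and 55.9. Every BLM+HBO mouse therefore lay below every BLM mouse, although BLM+HBO 2 and BLM 4 were close together. The means were 65.3 ± 4.29 FPKM (SD, n = 4) and 56.2 ± 3.54 FPKM (SD, n = 3). Wnt7a made up the largest part of this sum in each BLM mouse (19.4% to 21.6%), whereas it made up 10.3%, 19.7% and 15.02% in the BLM+HBO mice. The share of Wnt10b was 2.18% to 4.69% in BLM and 4.82% to 10.97% in BLM+HBO, with no overlap. These shares were looked at after the levels were known and carry no test.

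**Figure D2:**
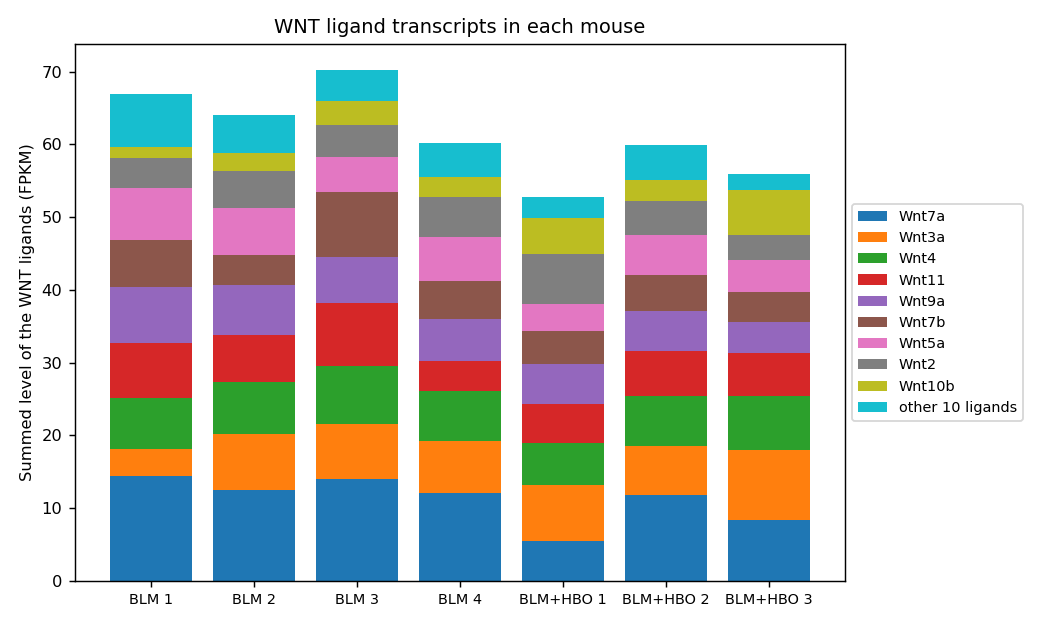
Summed FPKM of the WNT ligands in each mouse, stacked by gene for the 9 ligands with the highest mean level and for the other 10 together. The BLM bars reach 60.2 to 70.3 FPKM and the BLM+HBO bars 52.8 to 59.9 FPKM, with a smaller Wnt7a segment in BLM+HBO 1 and BLM+HBO 3 than in the other mice.

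Wnt5b, a ligand of the beta-catenin-independent branches (ENSMUSG00000030170.14, GRCm38 chr6:119432531-119544347, minus strand), had the smallest P among the members. Its level was 2.95, 2.85, 1.92 and 2.24 FPKM in the BLM mice and 1.22, 1.68 and 1.31 FPKM in the BLM+HBO mice. All 3 treated mice lay below all 4 BLM mice. The level fell by 0.82 on the log2 scale (SE 0.24, 95% interval -1.37 to -0.28) and was called (adjusted P = 0.423 by edgeR). It was called with any single mouse left out and with every other tool, scaling and filter tried, with log2 fold changes between -0.97 and -0.73 and adjusted P between 0.0925 and 0.802.

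Wnt7a, an epithelial ligand with a role in limb development (ENSMUSG00000030093.7, GRCm38 chr6:91363981-91411363, minus strand), had the highest mean level of the ligands in both groups. Wnt3a was higher than Wnt7a in BLM+HBO 1 (7.77 FPKM) and BLM+HBO 3 (9.55 FPKM). The BLM mice had 14.4, 12.5, 14.0 and 12.0 FPKM of Wnt7a and the BLM+HBO mice 5.42, 11.8 and 8.39 FPKM. The groups did not overlap, but BLM+HBO 2 and BLM 4 differed by little. The log2 fold change was -0.63 (SE 0.22, 95% interval -1.13 to -0.13) and the gene was called (adjusted P = 0.423 by edgeR). The call was lost without BLM+HBO 1, where the log2 fold change was -0.39, and without BLM+HBO 3, where it was -0.62. Without BLM+HBO 2 it was -0.93.

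Wnt10b, a canonical ligand known for holding back fat cell formation (ENSMUSG00000022996.15, GRCm38 chr15:98770712-98778150, minus strand), was the member called higher. Its level was 1.46, 2.58, 3.29 and 2.73 FPKM in the BLM mice against 4.96, 2.88 and 6.13 FPKM in the BLM+HBO mice. BLM+HBO 1 and BLM+HBO 3 were above all BLM mice, and BLM+HBO 2 was below BLM 3. Wnt10b rose by 0.89 on the log2 scale (SE 0.31, 95% interval 0.20 to 1.58) and was called (adjusted P = 0.423 by edgeR). Without BLM+HBO 3 the log2 fold change was 0.63 and the call was lost.

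Wnt9a and Wnt5a fell at an unadjusted P below 0.05 but by less than 1.5-fold. Wnt9a, a ligand active in joint and skeletal development (GRCm38 chr11:59306928-59333552, plus strand), had 7.67, 6.84, 6.40 and 5.88 FPKM in BLM and 5.45, 5.51 and 4.38 FPKM in BLM+HBO. There was no overlap, and the log2 fold change was -0.39 (SE 0.15, adjusted P = 0.438 by edgeR). Wnt5a, the main ligand of the beta-catenin-independent branches (GRCm38 chr14:28504750-28527448, plus strand), had 7.13, 6.50, 4.82 and 5.99 FPKM in BLM and 3.71, 5.50 and 4.43 FPKM in BLM+HBO. BLM 3 lay within the treated range. Its log2 fold change was -0.43 (SE 0.17, adjusted P = 0.441 by edgeR). 4.58% of its exonic length is shared with an antisense gene, and counting without strand leaves out reads in that stretch. The P values of both genes exceeded 0.05 without BLM 1, without BLM 2 or without BLM+HBO 3, and that of Wnt5a also did without BLM 4 or without BLM+HBO 1.

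Wnt10a and Wnt6, canonical ligands of epithelial appendages, lie next to each other on chromosome 1 with 6194 bases between them. Wnt10a had 2.61, 1.26, 1.33 and 1.17 FPKM in the BLM mice and 0.108, 1.44 and 0.258 FPKM in the BLM+HBO mice. Wnt6 had 0.754, 0.386, 0.501 and 0.769 FPKM in the BLM mice and 0.219, 0.764 and 0.222 FPKM in the BLM+HBO mice. For both genes BLM+HBO 1 and BLM+HBO 3 were below every BLM mouse and BLM+HBO 2 was within the BLM range. With all mice neither passed P below 0.05 by edgeR (Wnt10a: log2 fold change -1.41, SE 0.71, adjusted P = 0.512, and Wnt6: -0.59, SE 0.52, adjusted P = 0.710). DESeq2 (log2 fold change -1.41, adjusted P = 0.335), limma-trend (-1.94, adjusted P = 0.398) and edgeR without the filter on low counts did call Wnt10a lower with all mice. Without BLM+HBO 2 the log2 fold change of Wnt10a was -3.06 with an adjusted P of 0.0376 by edgeR.

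By edgeR with the filter on low counts, all mice and no block for replicate number, the other tested ligands did not pass P below 0.05. Of these, Wnt7b and Wnt9b passed it without the filter, and Wnt9b and Wnt11 with the block. Wnt7b, a ligand of lung epithelium, had 6.46, 4.10, 8.93 and 5.24 FPKM in BLM and 4.63, 4.95 and 4.07 FPKM in BLM+HBO (log2 fold change -0.44, SE 0.24, edgeR adjusted P = 0.533). It was called lower without BLM 2 (-0.596). Wnt9b, a ligand of kidney development, had 0.0233 to 0.274 FPKM in BLM and 0.0581 to 0.0825 FPKM in BLM+HBO (log2 fold change -1.38, SE 0.69, edgeR adjusted P = 0.507). BLM 4 was below all treated mice and the other BLM mice were above them. Wnt9b was called lower without BLM 4 (-1.75), without the filter on low counts and with the block. No treated mouse shares the number of BLM 4, so the block in effect leaves BLM 4 out and is not a separate check. Wnt11 likewise passed P below 0.05 by edgeR without BLM 4 (log2 fold change -0.384). Wnt2, which with Wnt2b specifies the lung bud in the embryo, had 4.18 to 5.51 FPKM in BLM and 3.43 to 6.87 FPKM in BLM+HBO. Wnt2b was low, at 0.248 to 0.616 FPKM against 0.303 to 0.925 FPKM (log2 fold change 0.70, SE 0.45, edgeR adjusted P = 0.607). Wnt3a, Wnt4 and Wnt11 were among the most abundant ligands and their group ranges overlapped. Their log2 fold changes were 0.30 for the canonical ligand Wnt3a, -0.12 for Wnt4, a ligand of kidney and gonad development, and -0.20 for Wnt11.

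The upstream sequences of the called ligands were examined for binding motifs of TCF/LEF factors, the nuclear end of the pathway, and of the hypoxia-inducible factors (HIF), whose activity depends on oxygen. RefSeq windows of 250 bases before a transcript start (GRCm38.p6) were found for 29 of the 43 genes, 35 windows in all. All windows of the called ligands and of Wnt9a are shown, 5′ to 3′ on the gene's strand, with HIF cores (ACGTG or GCGTG) and TCF/LEF motifs (CTTTGAA or CTTTGAT), both read on either strand, in capitals. Wnt5b has 3 windows, at chr6:119544348-119544597 (start 1), chr6:119467212-119467461 (start 2) and chr6:119449387-119449636 (start 3), all on the minus strand. Wnt7a lies at chr6:91411354-91411603 (minus), Wnt9a at chr11:59306680-59306929 (plus) and Wnt10b at chr15:98778151-98778400 (minus).
Wnt5b start 1: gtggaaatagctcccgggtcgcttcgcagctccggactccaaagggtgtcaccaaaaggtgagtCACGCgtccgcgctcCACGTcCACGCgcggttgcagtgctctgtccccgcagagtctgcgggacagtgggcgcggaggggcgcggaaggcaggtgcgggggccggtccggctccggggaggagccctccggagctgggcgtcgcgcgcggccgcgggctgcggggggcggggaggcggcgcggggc
Wnt5b start 2: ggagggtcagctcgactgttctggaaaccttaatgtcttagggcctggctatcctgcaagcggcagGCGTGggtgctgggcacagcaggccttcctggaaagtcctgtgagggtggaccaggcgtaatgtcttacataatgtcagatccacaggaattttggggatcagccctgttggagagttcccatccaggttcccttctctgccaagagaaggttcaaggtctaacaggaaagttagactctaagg
Wnt5b start 3: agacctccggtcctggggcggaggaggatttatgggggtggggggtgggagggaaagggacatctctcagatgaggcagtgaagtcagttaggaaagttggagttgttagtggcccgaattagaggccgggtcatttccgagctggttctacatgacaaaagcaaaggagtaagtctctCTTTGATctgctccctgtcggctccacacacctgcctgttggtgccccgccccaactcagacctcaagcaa
Wnt7a: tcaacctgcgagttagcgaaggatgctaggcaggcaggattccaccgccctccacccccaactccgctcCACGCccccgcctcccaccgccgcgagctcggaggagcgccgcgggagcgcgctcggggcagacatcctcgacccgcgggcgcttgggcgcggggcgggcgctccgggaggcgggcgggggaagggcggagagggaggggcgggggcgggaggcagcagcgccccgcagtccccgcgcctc
Wnt9a: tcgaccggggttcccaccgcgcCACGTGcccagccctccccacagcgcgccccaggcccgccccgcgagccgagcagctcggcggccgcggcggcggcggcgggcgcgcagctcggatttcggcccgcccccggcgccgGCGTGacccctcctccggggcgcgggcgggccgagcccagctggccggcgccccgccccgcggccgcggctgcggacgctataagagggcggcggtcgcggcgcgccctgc
Wnt10b: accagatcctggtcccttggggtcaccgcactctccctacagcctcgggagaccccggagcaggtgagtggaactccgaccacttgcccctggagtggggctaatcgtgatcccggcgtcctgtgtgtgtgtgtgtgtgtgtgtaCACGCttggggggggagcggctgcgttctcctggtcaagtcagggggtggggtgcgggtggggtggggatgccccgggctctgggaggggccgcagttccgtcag

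Of the Wnt5b windows, start 1 holds 3 HIF cores, start 2 holds 1, and start 3 holds none but has 1 TCF/LEF motif, the only such motif in the windows shown. The Wnt9a window holds 3 HIF cores, of which a palindrome gives 2 that overlap on opposite strands, and the Wnt7a and Wnt10b windows hold 1 each. Over the members, 18 of 35 windows (51.4%) held a HIF core, against 38.6% of all 32851 windows of the same length, but their median GC content was 66.4% against 52.4%. The TCF/LEF motif was in 3 of 35 windows (8.57%) against 7.48% of all. These matches are a description of letters, and Wnt5a and Sfrp1 had no window.

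None of the 8 tested Frizzled receptors passed P below 0.05 by edgeR with the filter on low counts, all mice and no block for replicate number. 6 of the 8 had a higher fitted level in BLM+HBO, against 8942 of all 17465 tested genes. The median log2 fold change of the 8 receptors was 0.06. Fzd1, the receptor with the highest mean over the 7 mice (in BLM+HBO the mean of Fzd4 was slightly higher, at 23.2 against 23.1 FPKM), had 50.7, 37.8, 27.5 and 24.9 FPKM in the BLM mice and 16.7, 32.1 and 20.3 FPKM in the BLM+HBO mice. BLM+HBO 1 and BLM+HBO 3 were below all BLM mice and BLM+HBO 2 was in the middle of them. The log2 fold change was -0.61 (SE 0.28, 95% interval -1.24 to 0.02, adjusted P = 0.475 by edgeR). DESeq2 and limma called Fzd1 lower (adjusted P = 0.329 and 0.447), and without BLM+HBO 2 its log2 fold change was -0.93. By edgeR it was called lower without the filter, with the block, and without BLM 3, BLM 4 or BLM+HBO 2. The block in effect leaves out BLM 4 as well. Fzd2 passed P below 0.05 by edgeR without the filter, with the block or without BLM+HBO 3. Fzd4 passed it without the filter or without BLM+HBO 2. All of these changes were less than 1.5-fold.

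Fzd4, a receptor of blood vessel endothelium that also binds the non-WNT ligand norrin, had 16.6, 20.0, 15.7 and 20.0 FPKM in BLM and 32.1, 18.1 and 19.5 FPKM in BLM+HBO. Only BLM+HBO 1 was above the BLM range, and the log2 fold change was 0.36 (SE 0.20, edgeR adjusted P = 0.543). Fzd3, which acts in planar polarity, had 1.04, 0.999, 0.939 and 0.933 FPKM against 1.27, 1.11 and 1.04 FPKM, a difference of 0.22 on the log2 scale in which the groups just failed to overlap (SE 0.14, edgeR adjusted P = 0.604). Fzd2, a receptor for Wnt5a among others, ran the other way, with 12.2 to 16.4 FPKM in BLM and 7.19 to 13.8 FPKM in BLM+HBO (log2 fold change -0.37, SE 0.21, edgeR adjusted P = 0.556). Fzd5, Fzd6, Fzd7 and Fzd8 had log2 fold changes between 0.03 and 0.21, and their group ranges overlapped. Fzd5 shares 17.8% of its exonic length with another gene, where unstranded counting drops reads.

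The co-receptors had nearly equal levels in both groups. Lrp5 had 12.3, 13.8, 10.6 and 12.7 FPKM in the BLM mice and 10.3, 10.5 and 14.4 FPKM in the BLM+HBO mice. Lrp6 had 9.52, 9.09, 6.86 and 7.18 FPKM in the BLM mice and 9.17, 7.68 and 7.98 FPKM in the BLM+HBO mice. The 95% interval of the log2 fold change ran from -0.40 to 0.25 for Lrp5 and from -0.30 to 0.34 for Lrp6. Changes within those limits remain compatible with these data, and no detection limit was computed.

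**Figure D3:**
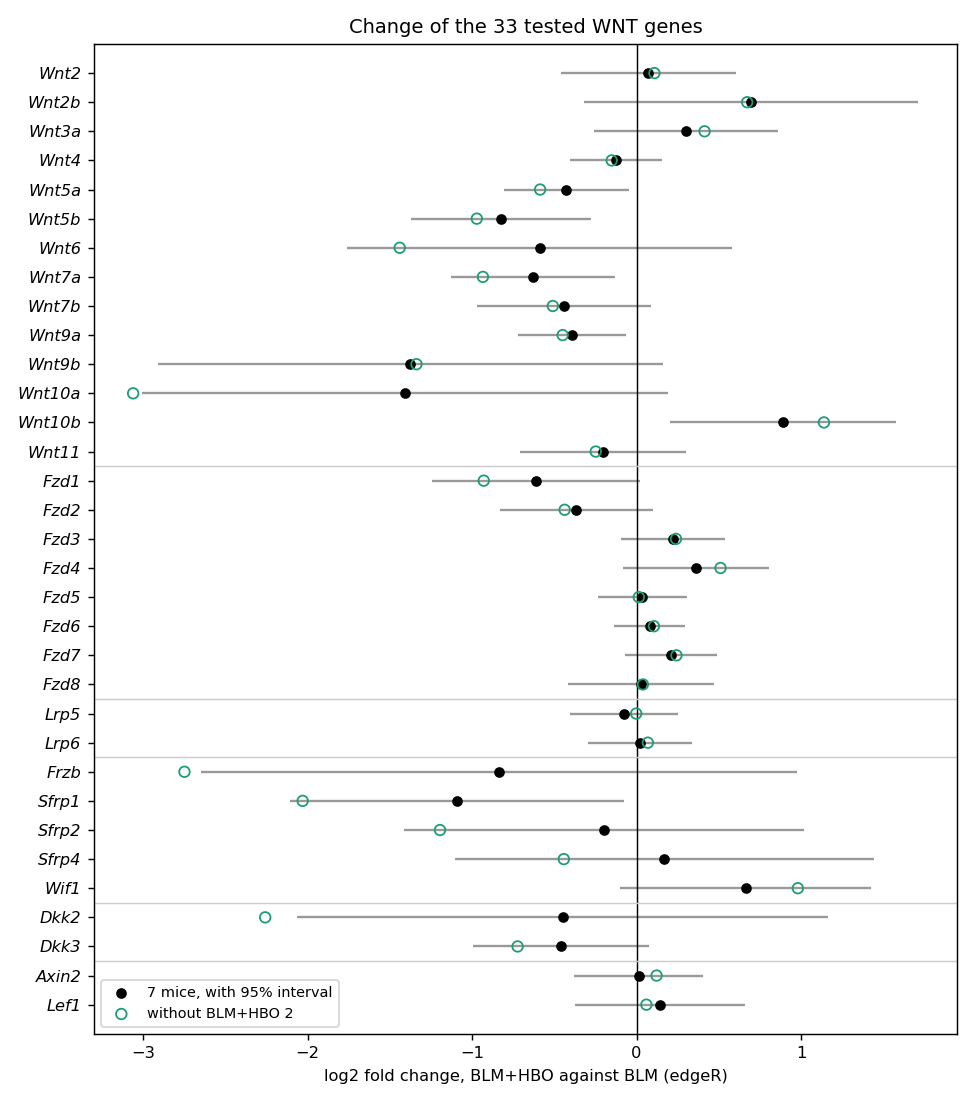
Log2 fold change of each tested WNT gene, BLM+HBO against BLM, from edgeR with its 95% interval (filled points, 7 mice) and without BLM+HBO 2 (open points). The open points lie far left of the filled ones for Frzb (-2.75), Wnt10a (-3.06), Dkk2 (-2.26), Sfrp1 (-2.03), Sfrp2 (-1.195) and Wnt6 (-1.44). For most Frizzled receptors they lie close to the filled points.

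Among the inhibitors that bind WNT proteins, Sfrp1 was called lower. Sfrp1 (ENSMUSG00000031548.7, GRCm38 chr8:23411502-23449632, plus strand) encodes the prototype of the secreted Frizzled-related proteins and had the highest mean level of all 43 genes over the 7 mice and in BLM, whereas in BLM+HBO the mean of Dkk3 was higher (30.4 against 24.3 FPKM). The BLM mice had 63.8, 49.6, 43.1 and 51.0 FPKM and the BLM+HBO mice 9.40, 47.6 and 16.0 FPKM. BLM+HBO 1 and BLM+HBO 3 were far below every BLM mouse, and BLM+HBO 2 was above BLM 3. The log2 fold change was -1.09 (SE 0.45, 95% interval -2.11 to -0.07, adjusted P = 0.454 by edgeR). DESeq2 did not call the gene (log2 fold change -1.09, adjusted P = 0.460). Without BLM+HBO 2 the log2 fold change was -2.03 with an adjusted P of 0.0189 by edgeR, and the call was lost without BLM 1, BLM 2, BLM 4, BLM+HBO 1 or BLM+HBO 3, where the log2 fold changes ran from -1.11 to -0.71.

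Frzb, a decoy for WNT ligands first known from cartilage, varied more among the treated mice than nearly any other gene. Its level was 2.91, 2.70, 2.70 and 2.41 FPKM in the BLM mice and 0.0658, 3.74 and 0.695 FPKM in the BLM+HBO mice. BLM+HBO 2 was above all BLM mice and the other treated mice were below all of them. The 56.9-fold range within BLM+HBO was exceeded, on the log2 CPM scale, by 7 of the 17465 tested genes. With all mice the log2 fold change was -0.84 (SE 0.81, edgeR adjusted P = 0.738).

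Wif1, which binds WNT ligands and is made by epithelium and some fibroblasts, had 1.25, 1.18, 1.45 and 0.998 FPKM in BLM and 2.30, 0.966 and 2.52 FPKM in BLM+HBO. BLM+HBO 1 and BLM+HBO 3 were above, and BLM+HBO 2 just below, all BLM mice (log2 fold change 0.66, SE 0.34, edgeR adjusted P = 0.516). Sfrp2 and Sfrp4, both made by fibroblasts, had overlapping groups. Sfrp2 had 9.51, 7.75, 22.3 and 12.7 FPKM against 7.49, 22.8 and 3.99 FPKM, and Sfrp4 had 0.135 to 0.408 FPKM against 0.0892 to 0.538 FPKM. In both, BLM+HBO 2 had the highest level of all 7 mice. The FPKM of the 6 WNT-binding inhibitors summed to 61.5 to 77.9 in BLM, against 19.4, 75.9 and 23.5 after HBO.

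The Dickkopf proteins were represented by Dkk3 and Dkk2. Dkk3, a divergent member that is not an established co-receptor antagonist, had 52.2, 50.5, 32.1 and 32.0 FPKM in BLM and 23.8, 40.6 and 26.8 FPKM in BLM+HBO. BLM+HBO 1 and BLM+HBO 3 were below the BLM range (log2 fold change -0.46, SE 0.24, edgeR adjusted P = 0.525). Dkk2, a co-receptor ligand, had 3.37, 2.19, 2.56 and 2.59 FPKM in BLM and 0.244, 4.79 and 0.850 FPKM in BLM+HBO, the same order of treated mice as Frzb. Its log2 fold change was -0.45 (SE 0.72, edgeR adjusted P = 0.856) with all mice and -2.26 (adjusted P = 0.0459) without BLM+HBO 2. Within BLM+HBO, 24 tested genes had a larger range than Dkk2.

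BLM+HBO 2 was singled out because it lay next to the BLM mice, so a fit without it gives no independent support. Without BLM+HBO 2, 13 of the 33 genes were called by edgeR against 10.7% of all 17879 genes then tested (6.29% with all mice). 11 were lower (Wnt5a, Wnt5b, Wnt6, Wnt7a, Wnt10a, Fzd1, Frzb, Sfrp1, Sfrp2, Dkk2 and Dkk3) and 2 were higher (Wnt10b and Wif1). 4 passed an adjusted P of 0.05 (Sfrp1, Wnt10a, Dkk2 and Wnt7a, the last with an adjusted P of 0.04997), against 1.49% of all genes. Those were the lowest adjusted P of these genes, and over the other settings they reached 0.802 for Sfrp1 and Wnt7a, 0.817 for Wnt10a and 0.991 for Dkk2. For Fzd1 the adjusted P ran from 0.132 to 0.810. Without BLM+HBO 1 the called genes were Wnt5b and Wnt10b, and without BLM+HBO 3 they were Wnt5b and Wnt2b. BLM+HBO 2 had the highest level of its group in 15 of the 33 genes, against 31.4% of all tested genes.

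The summed levels of marker genes of activated fibroblasts and AT2 cells were set beside these values. Activated fibroblasts, the matrix-depositing cells of fibrosis, were represented by 8 markers (Cthrc1, Postn, Col1a1, Col3a1, Spp1, Lrrc15, Grem1 and Fap). Their expression in other cell types was not examined, so their sum need not come from fibroblasts alone. The CPM of these markers summed to 11670, 9132, 8473 and 8008 in the BLM mice, against 2121, 7331 and 3460 after HBO. 4 of the 8 were called lower, against 2.89% of all tested genes, and BLM+HBO 1 and BLM+HBO 3, the mice with the least Sfrp1, Frzb, Dkk2 and Wnt10a, had the lowest sums. The CPM of 8 markers of AT2 cells summed to 9019, 16480, 15820 and 15130 in BLM, against 24280, 11440 and 28040 after HBO. 1 of the 8 was called higher, against 3.4% of all tested genes, and the groups overlapped. BLM+HBO 1 and BLM+HBO 3, the mice with the most Wnt10b and Wif1, had the highest sums. No activated fibroblast or AT2 marker was at 0 in any mouse. This order of mice was not particular to these lists. BLM+HBO 1 and BLM+HBO 3 also had the lowest sums of adventitial fibroblast, smooth muscle, basal, mesothelial, and monocyte and macrophage markers. They had the highest sums of alveolar fibroblast, club, ciliated, endothelial and B cell markers. The remaining lists, AT1 among them, did not have both mice at one end. The part of these shifts in the WNT differences was not tested.

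**Figure D4:**
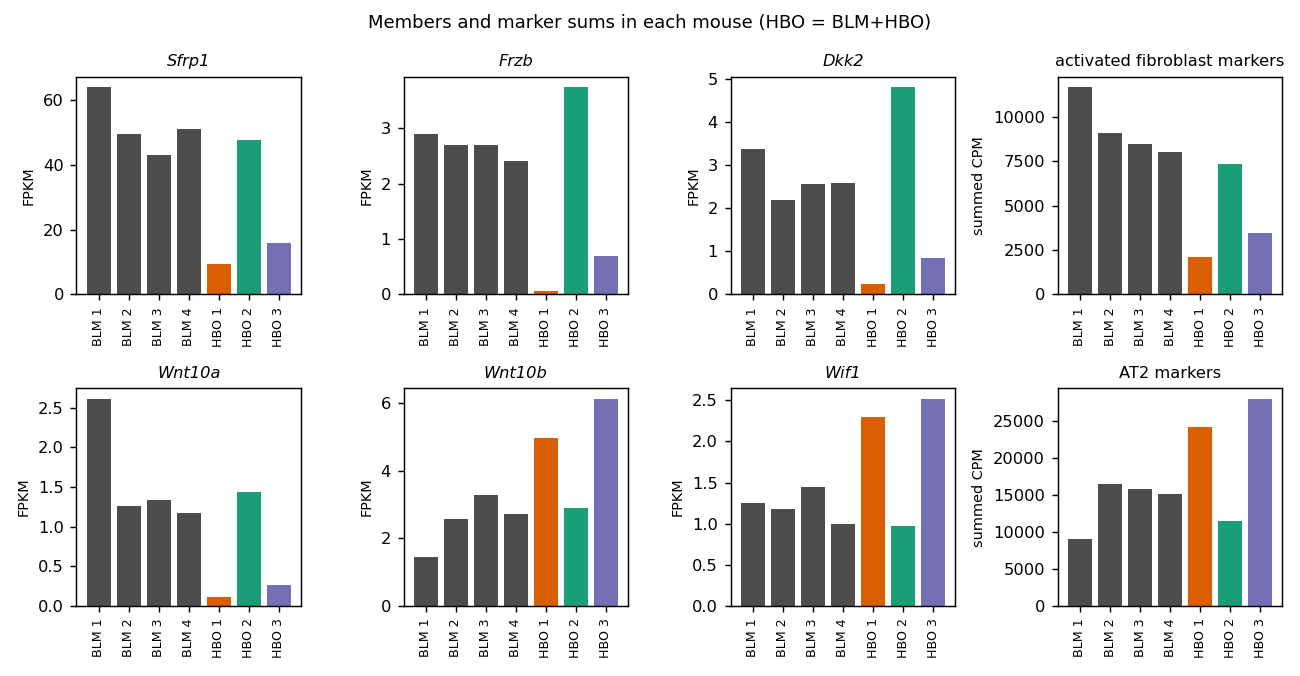
Levels of Sfrp1, Frzb, Dkk2, Wnt10a, Wnt10b and Wif1 (FPKM) and the summed CPM of the activated fibroblast and AT2 marker lists, with 1 bar per mouse and BLM+HBO shortened to HBO. The bars of BLM+HBO 1 and BLM+HBO 3 are the shortest for Sfrp1, Frzb, Dkk2, Wnt10a and the fibroblast markers and the tallest for Wnt10b, Wif1 and the AT2 markers.

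The canonical read-out genes had similar levels in both groups. Axin2, a feedback inhibitor that beta-catenin induces, had 4.88, 4.92, 3.54 and 5.56 FPKM in the BLM mice and 4.71, 4.02 and 5.58 FPKM in the BLM+HBO mice. The treated mice lay almost wholly within the BLM range, and the log2 fold change was 0.01 (SE 0.17, 95% interval -0.38 to 0.41, edgeR adjusted P = 0.986). Lef1, a nuclear partner of beta-catenin that is also expressed in lymphocytes, had 0.752, 0.577, 0.775 and 0.917 FPKM in BLM and 0.945, 0.926 and 0.636 FPKM in BLM+HBO. Its log2 fold change was 0.14 (SE 0.23, 95% interval -0.38 to 0.66, edgeR adjusted P = 0.857). 13.7% of the exonic length of Lef1 and 3.80% of that of Axin2 is shared with another gene.

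Of 86 further genes of the pathway, 81 were tested and 5 were called (Myc, Ccn4, Rspo3, Notum and Ror2), against 6.29% of all tested genes, so the number called was near the background. All 5 were lower in BLM+HBO, against 2.89% of all genes called lower, and the median log2 fold change over the list was -0.01. Myc, a growth regulator and classical target gene, had 14.5, 11.2, 15.8 and 9.75 FPKM in BLM and 7.01, 9.05 and 5.27 FPKM in BLM+HBO. Ccn4 (WISP1), a matricellular target gene, had 18.3, 11.3, 10.2 and 9.44 FPKM in BLM and 2.90, 8.96 and 3.54 FPKM in BLM+HBO. For both genes all treated mice were below all BLM mice. Myc fell by 0.85 on the log2 scale (SE 0.22, adjusted P = 0.423 by edgeR) and Ccn4 by 1.26 (SE 0.39, adjusted P = 0.423). They were the only called genes among 14 tested target and feedback genes, and both also have regulators outside the WNT pathway.

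Rspo3, a secreted R-spondin that strengthens WNT signals by protecting the receptors, had 1.73, 1.39, 0.853 and 0.954 FPKM in BLM and 0.482, 0.774 and 0.401 FPKM in BLM+HBO. It fell by 1.16 on the log2 scale without overlap of the groups (SE 0.36, adjusted P = 0.423 by edgeR). Rnf43, a ligase that removes Frizzled receptors, was at 1.83 to 2.38 FPKM in BLM and 2.34 to 3.38 FPKM in BLM+HBO (log2 fold change 0.41, SE 0.17, edgeR adjusted P = 0.452) and rose at P below 0.05 by less than 1.5-fold. Notum, an enzyme that strips the lipid from WNT proteins, fell by 0.69 without overlap of the groups (SE 0.26, edgeR adjusted P = 0.436). Ror2, a receptor for Wnt5a, fell by 0.88 (SE 0.34, edgeR adjusted P = 0.440), but its groups overlapped. BLM+HBO 2 had 3.05 FPKM of Ror2 and BLM 3 had 2.95 FPKM, whereas BLM+HBO 1 had 0.891 FPKM. Ptk7, a planar polarity co-receptor, and Igfbp4, which can bind WNT receptors, were not called: they fell at P below 0.05 but by less than 1.5-fold, with log2 fold changes of -0.41 and -0.58 (edgeR adjusted P = 0.423 and 0.455). The 14 genes of the intracellular relay, the 14 nuclear factors and the 14 planar polarity genes held 0 genes at P below 0.05 by edgeR.

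10 of the 43 genes had too few counts for the test: Wnt1, Wnt3, Wnt8a, Wnt8b, Wnt16, Fzd9, Fzd10, Sfrp5, Dkk1 and Dkk4. Their counts summed to between 2 and 46 over the 7 mice. Wnt16 had 2, 5, 1 and 1 counts in the BLM mice and 0 in each BLM+HBO mouse, a difference too small to be read at this depth. Wnt1 lies 11707 bases from Wnt10b and Wnt3 lies 24329 bases from Wnt9b, so both near-silent ligands have a neighbour that was measured.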

How the data were processed

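Lung RNA of 4 BLM and 3 BLM+HBO mice had been sequenced with a kit that does not keep the strand. After trimming with Trim Galore, the authors aligned the reads to GRCm38 with HISAT2 2.2.0 and made the deposited raw counts per gene with featureCounts at default settings, so reads that overlap several genes or map to several places are missing. The sources differ on the version of featureCounts. The annotation release is not given in the sources used here. Symbols were taken from GENCODE M21.

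Genes were filtered with filterByExpr (minimum count 10, total 15), scaled by TMM (factors 0.964 to 1.04) and tested without pairing in edgeR 4.0.16 (R 4.3.3). P values were adjusted over all 17465 tested genes by the Benjamini-Hochberg method. The common biological coefficient of variation was 0.222. DESeq2 1.42.0 and limma 3.58.1 (limma-trend) were alternatives, beside a replicate block, RLE factors, robust empirical Bayes, no filter or 1 CPM in 3 mice, P limits of 0.01 and an adjusted 0.1, a fold limit of 2, and leaving out each mouse. The scripts were tested on simulated data. Named members were those at P below 0.05, the most abundant of each role, the co-receptors, Axin2, Lef1, Wif1 and Frzb, and others were named by role. The members, the pathway list and the 18 marker lists were chosen with earlier results of these data known.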

Additional observations from a re-analysis of the deposited data

Results flagged for a closer look

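In 34 sets of 4 BLM values (the members' log2 CPM and the total count), 3 had 1 mouse far from the others by Dixon's rule, which chance gives in about 1 in 20 sets. For Wnt3a, BLM 1 had 3.35 log2 CPM and the other BLM mice 4.31 to 4.42, a gap of 0.902 of the range. For Wnt10a, BLM 1 had 2.71 log2 CPM and the others 1.58 to 1.76, a gap of 0.840 of the range. BLM 4 held 19002242 counts and the other BLM libraries 18436336 to 18452895, a gap of 0.971 of the range.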

How the results depend on the processing

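The count of 4 called members (6.29% of all genes) was 8 without a filter on low counts (5.9%). All 43 members were then tested, and Wnt16, with 9 counts in total, was among the 8. The called members numbered 5 by DESeq2 (4.25%), 6 by limma-trend (6.68%) and 3 with robust empirical Bayes (5.99%), where Sfrp1 was lost. The count was 1 with a fold limit of 2 (2.91%), 1 with P below 0.01 (1.83%), and 2 to 13 when each mouse was left out: 2 without BLM+HBO 1 (3.7%) or BLM+HBO 3 (4.95%) and 13 without BLM+HBO 2 (10.7%). At an adjusted P of 0.05 the count of 0 was 1 without a filter (Sfrp1, against 1.18% of all genes) and 0 to 4 when each mouse was left out. The 5 called further pathway genes became 2 with a fold limit of 2, 2 with P below 0.01, and 3 to 8 when each mouse was left out (8 without BLM+HBO 2, and 3 in the absence of either BLM 1 or BLM 2, or of BLM+HBO 1 or BLM+HBO 3). Mice of the 2 groups share replicate numbers. For each tested gene the deviation of a mouse's log2 CPM from the mean of its group was taken. Correlations of these deviations over the genes were -0.066 to 0.161 between same-numbered mice and -0.179 to 0.165 between the other mice of the 2 groups. With so few pairs these values cannot settle whether the numbers pair the mice. BLM 4 has no treated mouse of its number, so a fit with the block in effect leaves BLM 4 out. The replicate block gave 6 called members (7.2% of all genes), adding Fzd1 and Wnt9b, took Wnt5a to the other side of P 0.05 (log2 fold change -0.433) and turned Lrp6 to a log2 fold change of -0.027. With mice left out, the log2 fold changes ran from -0.254 to 0.013 for Lrp5 (highest without BLM+HBO 1), from -0.121 to 0.122 for Axin2 (lowest without BLM+HBO 3) and from -0.06 to 0.101 for Lrp6 (lowest without BLM+HBO 1). Of 196 log2 fold changes over 14 named members and these alternatives, 157 kept their direction and side of P 0.05, 14 passed it newly, 18 lost it and 7 changed sign. The cause of these shifts was not tested. 3 to 4 mice a group limit the precision.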

Other observations

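The other marker lists were counted at P below 0.05 and 1.5-fold by edgeR, limits that 3.4% of all tested genes passed as higher and 2.89% as lower, so a single gene of a list is near the background. In BLM+HBO, 8 of 9 heart muscle genes were higher (summed CPM 63.1 to 175 in BLM and 155 to 643.5 in BLM+HBO), as were 5 of 5 B cell genes, 2 of 8 alveolar fibroblast genes, 2 of 5 club cell genes, 1 of 6 ciliated cell genes and 1 of 8 T cell genes. Lower were 3 of 4 basal cell genes (7.06 to 11.5 summed CPM in BLM and 2.85 to 6.32 in BLM+HBO), 4 of 8 monocyte and macrophage genes, 2 of 6 mesothelial genes, 1 of 8 adventitial fibroblast genes and 1 of 8 smooth muscle genes. Of 7 alveolar macrophage genes 1 was higher and 3 were lower. By edgeR, 0 genes were called, and 0 had P below 0.05, among 8 AT1, 8 endothelial, 4 lymphatic endothelial and 6 neutrophil genes.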
